A study of Danio rerio with 6 samples.

Results

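The zebrafish genes with the symbols znf970 to znf1199 were taken from the count table by symbol, which gave 199 of its 35197 rows, each with a symbol of its own. RNA came from whole embryos at 48 hours post-fertilization, untreated, in 3 libraries of wildtype genotype and 3 libraries of embryos homozygous for a dnajc21 mutation. Each RNA sample was drawn from a pool of 30 to 50 embryos. The table heads the wildtype columns casper, which is a pigment-deficient strain, and the labels give neither the mutant allele nor the strain of the mutants. An effect of the mutation and a difference between strains therefore cannot be told apart. Whether each pool is a clutch of its own is not in the labels, and the p-values speak for the variation among the libraries sequenced, part of which may be technical.

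C2H2 zinc finger proteins bind DNA through repeated fingers, each held by a zinc ion between cysteine and histidine side chains, and the residues at the tip of each finger set which bases are bound. Zebrafish carry a large, young family of such genes, much of it in tandem arrays, with a short amino-terminal domain known from fish. Members of this fish family are known to be transcribed in early embryos and to hold transposable elements in check, much as KRAB zinc finger proteins do in mammals. Which of the 199 rows encode proteins of that family is not annotated in the tables used here, so the group is defined by its symbols alone.

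The libraries held 8600951 to 11798543 counts. On a log2 scale of CPM (counts scaled to a common library size with TMM factors), component 1 of a principal component analysis carried 45.9% of the variance and separated the genotypes. Component 2 carried 19.5% and set wildtype replicate 1 and wildtype replicate 2 at opposite ends, with the mutants between. All 20 markers of muscle, neurons, skin, blood, heart, lens and endothelium stood at 1 CPM or more in every library. Of these 20, 3 were called, all lower in mutants, against 11.7% of all genes tested. They were the neuronal genes gap43 (log2 fold change -0.36) and elavl4 (-0.25) and the lens crystallin gene crygn2 (-0.21). The other neuron and lens markers were not called and leaned the other way, namely elavl3 (0.07), snap25a (0.08) and cryaa (0.08). The 3 blood markers summed to 1990 to 4775 CPM in wildtype and 3277 to 3497 CPM in mutants. Of these, alas2 measured 99.4, 48.3 and 60.8 CPM in wildtype and 135, 110 and 108 CPM in mutants. Its groups did not overlap, but the log2 fold change of 0.77 did not pass by edgeR (adjusted p = 0.241). The globin genes hbae1.1 (0.17) and hbbe1.1 (-0.02) were not called either. The part of these markers in the results on zinc finger genes was not tested. The dnajc21 transcript itself was lower in mutants, at 26.1 ± 4.27 CPM in wildtype and 18.0 ± 1.48 CPM in mutants (SD, n = 3 each; log2 fold change -0.55 with SE 0.12, and adjusted p = 0.00492 by edgeR).

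Nearly all of these zinc finger rows carried decimal counts. The values are estimated counts, which become decimals when a read fits more than 1 row and is split between them. Decimals stood in at least 1 library on 187 of the 199 rows (94.0%) and in all 6 libraries on 117 (58.8%), against 29.8% and 9.89% of all rows in the table. Of the 12 rows whose values were whole in every library, 6 were listed at 0 throughout, which left znf970, znf1007, znf1013, znf1014, znf1160 and znf1168 as the genes read with no detectable sharing. Pairs of rows with decimals that cancel in their sum, in every library, were searched for over 158 of the 199 rows, and 1 such pair was found. It joined znf1035 to BX539313.3, a row of 0 to 5.19 counts beside 897 to 1500 counts of znf1035. The other shared reads were thus not traced to a single partner row, and the fold changes on those rows are uncertain to that extent.

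Read counts of the 199 rows were low and concentrated in a few rows. In 92 rows every library reached 1 CPM, and in 10 rows every library reached 10 CPM. The median of the 126 rows that passed the filter on low counts was 3.11 CPM, against 12.5 CPM over all 20229 genes tested. The most abundant row, znf1035, measured 105, 113 and 124 CPM in the wildtype libraries and 126, 135 and 128 CPM in the mutants. Its mutant values all lay above its wildtype values, but the difference did not pass (log2 fold change 0.19 with SE 0.07, and adjusted p = 0.101 by edgeR). Without wildtype replicate 3, the wildtype library nearest the mutants, adjusted p was 0.0437. Leaving out any other single library gave no call of znf1035. The next, znf1062, measured 103, 138 and 125 CPM in wildtype and 136, 112 and 88.3 CPM in mutants. Its groups overlapped, and the log2 fold change was -0.12 (SE 0.19), at adjusted p = 0.766, with a change of sign, to 0.027, without mutant replicate 3. These rows together took 28.4% of the CPM summed over the 199 rows, and the 20 highest took 58.0%. CPM are not divided by transcript length, so this order ranks reads and not transcripts.

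Summed over all 199 rows, the gap between the genotypes was smaller than the spread within them. The sum was 768, 896 and 863 CPM in wildtype replicates 1 to 3 and 862, 852 and 811 CPM in mutant replicates 1 to 3. Wildtype replicate 1 was lowest and wildtype replicate 2 highest, with the mutants between. The means were 842 ± 66.2 and 842 ± 27.0 CPM, or 0.0763% to 0.0881% of the counts in a library. Without znf1179, which is described next, they were 816 ± 61.0 CPM in wildtype and 840 ± 26.7 CPM in mutants. In whole-embryo RNA, fewer cells that express a gene and less RNA in each cell cannot be told apart.

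**Figure D1:**
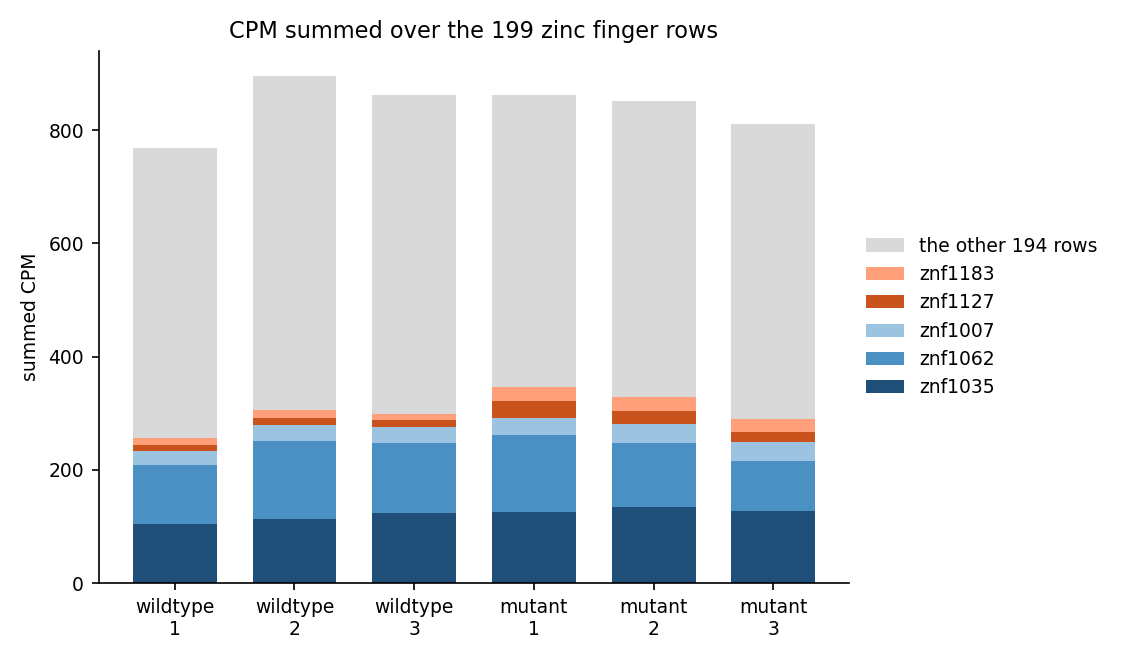
CPM (vertical axis) summed over the 199 rows in each library (horizontal axis), with the 5 most abundant rows in colour and the other 194 rows in grey. The 6 bars reach 768 to 896 CPM, and the mutant bars lie within the range of the wildtype bars, while the bands of znf1127 and znf1183 are taller in the mutants.

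Of the 126 rows tested, 8 differed between the genotypes, 4 higher and 4 lower in mutants, at an adjusted p under 0.05 in the quasi-likelihood test of edgeR, with Benjamini-Hochberg adjustment over all genes tested. That is 6.35% of them, against 11.7% of all genes tested, made up of 5.85% higher and 5.87% lower. With no filter on low counts, 13 of 193 rows were called, 3 higher and 10 lower, among 2624 of 30689 genes. A test of the difference between these shares was not made. The 2624 genes were not split by direction, so the 3 higher and 10 lower rows have no background beside them. Counting libraries alone, the groups did not overlap in 27 rows, 13 higher and 14 lower in mutants, or 21.4%, against 30.5% of all genes tested (15.1% higher and 15.4% lower). The median log2 fold change of the tested rows was -0.03, against -0.01 over all genes. The remaining 73 rows were too low to test, 6 of them at 0, and none of these 73 had a mean above 1.02 CPM. Among the 8 called rows, znf1072 passed the filter on low counts through its mutant libraries alone. All 8 calls lay on rows with decimals, as did 120 of the 126 rows tested. Of the 8, 7 had decimals in all 6 libraries, where 7 of 95 tested rows were called (7.37%, against 14.4% of all genes with such decimals). Among low genes, with means of 1 to 10 CPM, 4 of 101 rows were called (3.96%, against 8.44% of all genes at that level), and at 10 CPM or more, 3 of 17 were (17.6%, against 14.2%).

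**Figure D2:**
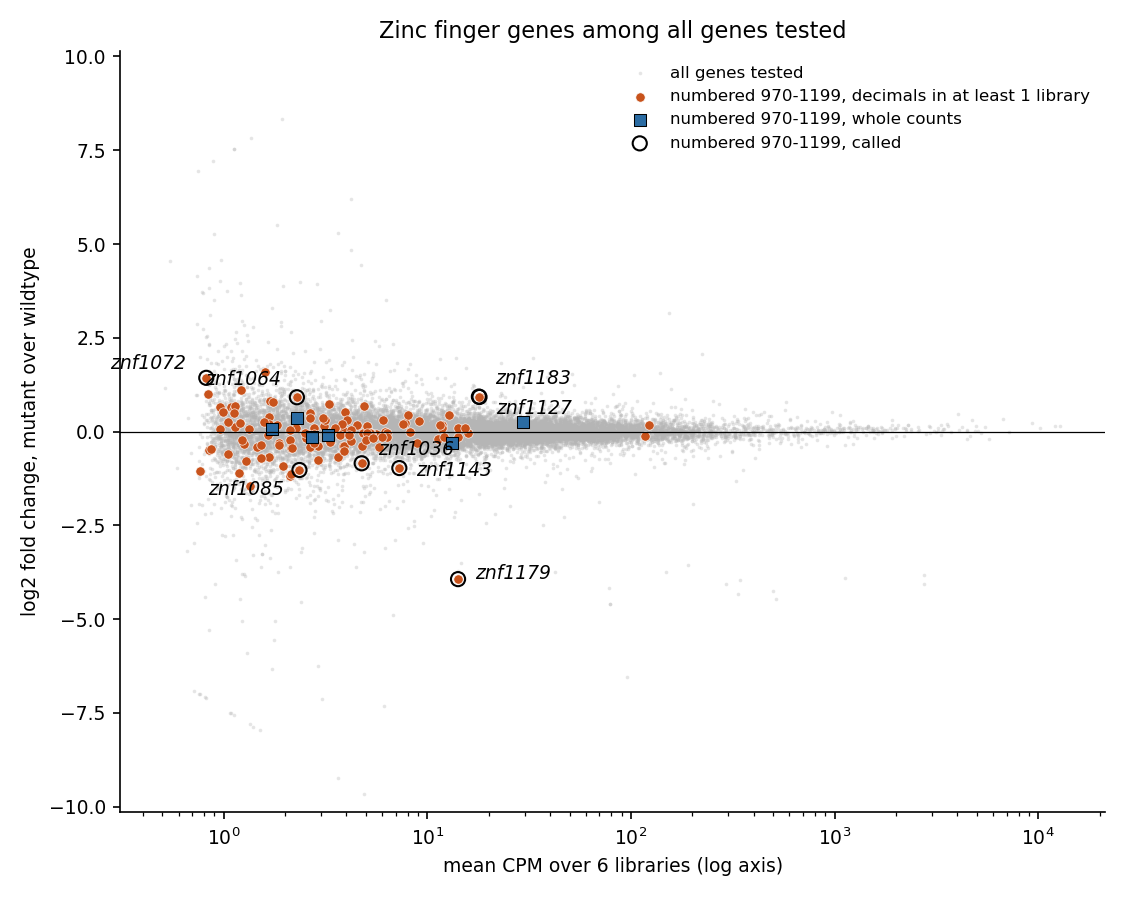
Log2 fold change of mutant over wildtype (vertical axis) against mean CPM over 6 libraries (horizontal log axis), with all 20229 genes tested in grey, the zinc finger rows with decimals as orange dots, those with whole counts as blue squares and the 8 called rows ringed and named. Of the rings, znf1179 stands alone near -3.93, and the other 7 lie between -1.02 and 1.43.

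The strongest change was the fall of znf1179. Its level was 21.5, 33.1 and 25.0 CPM in wildtype replicates 1 to 3, and 1.77, 2.15 and 1.31 CPM in mutant replicates 1 to 3. The lowest wildtype library thus lay far above the highest mutant library, and no mutant was at 0. The deposited counts behind this were 184.2, 340.25 and 271.07 in wildtype and 21, 20.65 and 14 in mutants, with decimals in 4 libraries. The mutant readings thus exceed the 3 counts that a reading of 0 allows for counting error. Whether reads shared with other rows make up this low level was not tested. The group means were 26.5 ± 5.97 and 1.74 ± 0.421 CPM (log2 fold change -3.93 with SE 0.21, and adjusted p = 2.93e-08 by edgeR). With any 1 library left out, the value stayed between -4.09 and -3.74.

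The clearest increase was that of znf1183. It measured 12.9, 12.6 and 11.5 CPM in wildtype and 23.6, 23.9 and 23.0 CPM in mutants. Both groups were tight and far apart, with means of 12.3 ± 0.715 and 23.5 ± 0.435 CPM (log2 fold change 0.93 with SE 0.10, and adjusted p = 1.09e-05 by edgeR). Leaving out any 1 library gave values of 0.89 to 0.97. Its counts had decimals in all 6 libraries.

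Expression of znf1143 fell. It stood at 9.36, 11.4 and 8.20 CPM in wildtype and 5.39, 5.22 and 4.11 CPM in mutants. Every mutant library was below every wildtype library, and the means were 9.65 ± 1.62 and 4.91 ± 0.694 CPM (log2 fold change -0.97 with SE 0.17, and adjusted p = 0.00122). These 3 genes, znf1179, znf1183 and znf1143, were called under each of 17 alternative settings that kept their rows, which covered scaling, filtering, test, pairing, summing of pairs and leaving out each library. The summing of pairs left the counts of these genes unchanged, since none of them was in a pair found. It therefore says nothing about read sharing on their rows.

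The other 5 calls were less firm. The level of znf1036 was 7.14, 5.65 and 5.62 CPM in wildtype and 4.13, 3.48 and 2.52 CPM in mutants (log2 fold change -0.84 with SE 0.21, and adjusted p = 0.0141). Its groups did not overlap, but adjusted p was 0.0570 with mutant replicate 2 left out, 0.0898 with mutant replicate 3 left out and 0.0514 by DESeq2. The level of znf1127 was 10.9, 13.8 and 12.6 CPM in wildtype and 30.6, 23.0 and 17.2 CPM in mutants (0.92, SE 0.21, adjusted p = 0.0287). Its mutant libraries were all higher but spread widely. Leaving out wildtype replicate 1, 2 or 3 raised adjusted p to 0.120, 0.0961 and 0.133, leaving out mutant replicate 2 raised it to 0.0742, and with no filter on low counts it was 0.0737.

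For znf1085 the values were 3.74, 2.63 and 3.13 CPM in wildtype and 1.35, 1.02 and 2.24 CPM in mutants (log2 fold change -1.02 with SE 0.31, and adjusted p = 0.0408 by edgeR). The gap between its groups was small, between 2.24 and 2.63 CPM, and adjusted p was above 0.05 with wildtype replicate 1 (0.101), wildtype replicate 3 (0.0927), mutant replicate 1 (0.149) or mutant replicate 2 (0.174) left out, and also without robust weights (0.0637), by DESeq2 (0.128) and by limma-voom (0.0509). For znf1072, the lowest of the 8, they were 0.468, 0.390 and 0.460 CPM in wildtype and 1.26, 1.13 and 1.22 CPM in mutants, or 4.05 to 5.28 against 11.4 to 14.98 counts (1.43, SE 0.46, adjusted p = 0.0488). Its wildtype counts were all under the filter's minimum count of 10. The row was thus tested only through the genotype in which it is high, and its call is no independent support for a rise. For znf1064 the values were 1.29, 1.75 and 1.66 CPM in wildtype and 2.61, 3.79 and 2.62 CPM in mutants (0.92, SE 0.29, adjusted p = 0.0499). Neither gene's groups overlapped, yet both calls ended when any 1 of the 6 libraries was left out, with adjusted p of 0.0823 to 0.165 for znf1072 and 0.0643 to 0.234 for znf1064. In those fits the log2 fold change ran from 1.35 to 1.48 for znf1072 and from 0.726 to 1.015 for znf1064. Both calls also ended with scaling by library totals (0.0510 and 0.0513), unrounded counts (0.0582 and 0.0521), DESeq2 (0.229 and 0.184) and limma-voom (0.0501 and 0.0720). That of znf1072 ended with no filter on low counts (0.104), and that of znf1064 without robust weights (0.0636).

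**Figure D3:**
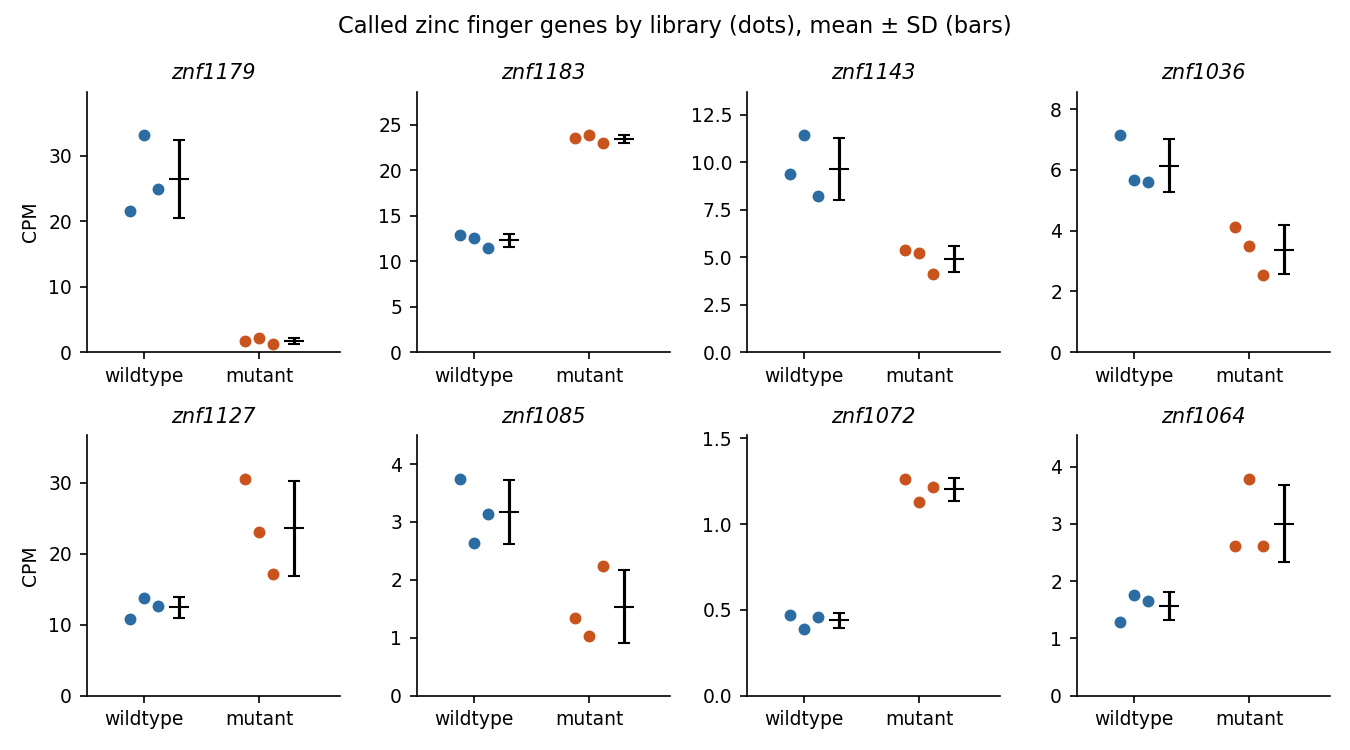
CPM (vertical axes, each from 0) of the 8 called zinc finger genes in order of adjusted p, with wildtype libraries as blue dots, mutant libraries as orange dots and bars for the mean ± SD of 3 libraries. In every panel the 3 mutant dots lie on one side of the 3 wildtype dots, and the distance between them is widest for znf1179 (21.5 to 33.1 against 1.31 to 2.15 CPM).

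The count of calls changed when single libraries were left out. It was 11 of 136 rows tested without wildtype replicate 2, and 5 of the 11 were among the 8 named above. Without mutant replicate 2 it was 4 of 143, and 3 of the 4 were among those named. Without wildtype replicate 1 it was again 8, of 142, and 4 of these were among those named. The filter on low counts was applied anew to the libraries kept, so the rows tested changed too, from 126 with all libraries. Calls over all genes moved as well, to 2108 of 20657 without wildtype replicate 2, 1242 of 20736 without mutant replicate 2 and 2658 of 20742 without wildtype replicate 1, from 2372 of 20229 with all libraries. DESeq2 called 4 rows, namely znf1127, znf1143, znf1179 and znf1183, among 1507 of 20212 genes. Limma-voom called those and znf1036, among 2065 of 20229 genes.

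The rows with whole counts give the levels least touched by read sharing, and edgeR called 0 of the 6 that were tested (2 at an unadjusted p under 0.05, and 0 by DESeq2 and by limma-voom), against 10.8% of all genes with whole counts. Most abundant among them was znf1007, at 25.4, 27.7 and 27.2 CPM in wildtype and 29.5, 34.5 and 32.7 CPM in mutants. Its mutant libraries all lay higher, at a log2 fold change of 0.26 (SE 0.09) and adjusted p = 0.0626. The opposite order held for znf1014, at 13.3, 15.3 and 15.01 CPM in wildtype and 10.6, 12.6 and 12.2 CPM in mutants (-0.31, SE 0.12, adjusted p = 0.113). In znf970, znf1013, znf1160 and znf1168, with means of 1.72 to 3.25 CPM, the groups overlapped. Summed, the whole-count rows held 51.2 ± 3.06 CPM in wildtype and 54.1 ± 4.45 CPM in mutants.

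Larger fold changes that did not pass belonged to low rows with decimals. The row of znf1105 measured 0.702, 1.36 and 0.276 CPM in wildtype and 0.843, 3.07 and 3.27 CPM in mutants (log2 fold change 1.59 with SE 0.60, and adjusted p = 0.126 by edgeR). Mutant replicate 1 lay among the wildtype libraries, and without it adjusted p was 0.0147. That of znf1025 measured 1.76, 1.07 and 3.04 CPM in wildtype and 0.253, 0.921 and 1.03 CPM in mutants (-1.44, SE 0.49, adjusted p = 0.0690; 0.0289 without wildtype replicate 2). That of znf1011 measured 2.46, 3.80 and 2.49 CPM in wildtype and 1.01, 2.35 and 0.561 CPM in mutants (-1.18, SE 0.40, adjusted p = 0.0720; 0.0156 without mutant replicate 2). In each of these rows the library left out was the one nearest the other genotype, so the lower adjusted p adds no support. With any other single library left out, none of these rows was called. With no filter on low counts and all libraries kept, edgeR called znf1025 (adjusted p = 0.0463) and znf1011 (0.0468) but not znf1105 (0.142). The groups of znf1025 and znf1011 did not overlap, by a margin of 1.03 to 1.07 and of 2.35 to 2.46 CPM. An absolute log2 fold change of at least 1 was reached by 11 of the 126 tested rows, against 745 of all 20229 genes tested (3.68%). At means of 1 to 10 CPM it was 7 of 101 rows against 560 of 8710 genes. With decimals in all 6 libraries it was 7 of 95 rows against 228 of 2907 genes. No test was made of these shares. The row of znf1103 held 9.95, 3.22 and 3.50 counts in wildtype and 0 in all 3 mutant libraries. It was too low to be tested, although it was called where no filter on low counts was used.

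Gene order was used to ask whether the fall of znf1179 extended to the genes around it. In the RefSeq gene table of assembly GRCz12tu, used for names and neighbours alone since the counts were made on danRer11, 58 of the 199 symbols were found as protein-coding genes. Of these, 37 lay in 9 stretches in which successive zinc finger genes of the group were at most 20 protein-coding genes apart. The longest stretch held 18 of them, znf1179 included, of which 16 were tested and 1, znf1179, was called, against 11.7% of all genes tested. The median log2 fold change of the stretch, znf1179 included, was -0.10. Of the other called rows, znf1085 was found in the table, with none of the other genes found there within that distance. Symbols not found have no position here, so whether further genes of the group lie near znf1085 is not known.

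Among the 10 protein-coding genes on each side of znf1179, 15 had a row in the counts and 12 were tested. Some of the 12, such as znf1154 and znf1184, also belong to the stretch above, so the counts for stretch and neighbours overlap. Of the 12, edgeR called 0 (2 at an unadjusted p under 0.05), DESeq2 0 and limma-voom 1, against 11.7% of all genes tested by edgeR and 8.44% of those at 1 to 10 CPM. In the adjacent zinc finger genes the genotypes overlapped. On one side znf1154 measured 11.5 ± 1.62 CPM in wildtype and 12.2 ± 4.45 CPM in mutants (log2 fold change 0.11, adjusted p = 0.863). On the other, znf1184 measured 5.05 ± 1.07 and 5.00 ± 1.24 CPM (-0.03, adjusted p = 0.948). A further neighbour, LOC100329627, was low, at 7.37, 3.80 and 2.03 CPM in wildtype and 1.35, 0 and 0 CPM in mutants. Its groups did not overlap, but the log2 fold change of -3.11 did not pass by edgeR (adjusted p = 0.196) or DESeq2 (0.410) and did by limma-voom (0.0233), and its row has decimals in 4 libraries. The other 11 tested neighbours had log2 fold changes of -0.79 to 0.36. All of them but znf1160 (0.36), LOC108181160 (0.12) and znf1154 lay below 0, some of them close to it, such as znf1184. Over all genes tested, 10317 of 20229 lay below 0, and no test was made of the difference. The lowest of these 11 neighbours, LOC100536344, measured 1.87, 2.24 and 2.30 CPM in wildtype and 1.26, 1.43 and 1.03 CPM in mutants. Its groups did not overlap, but the change did not pass by edgeR (adjusted p = 0.123), and its row has decimals in 6 libraries.

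**Figure D4:**
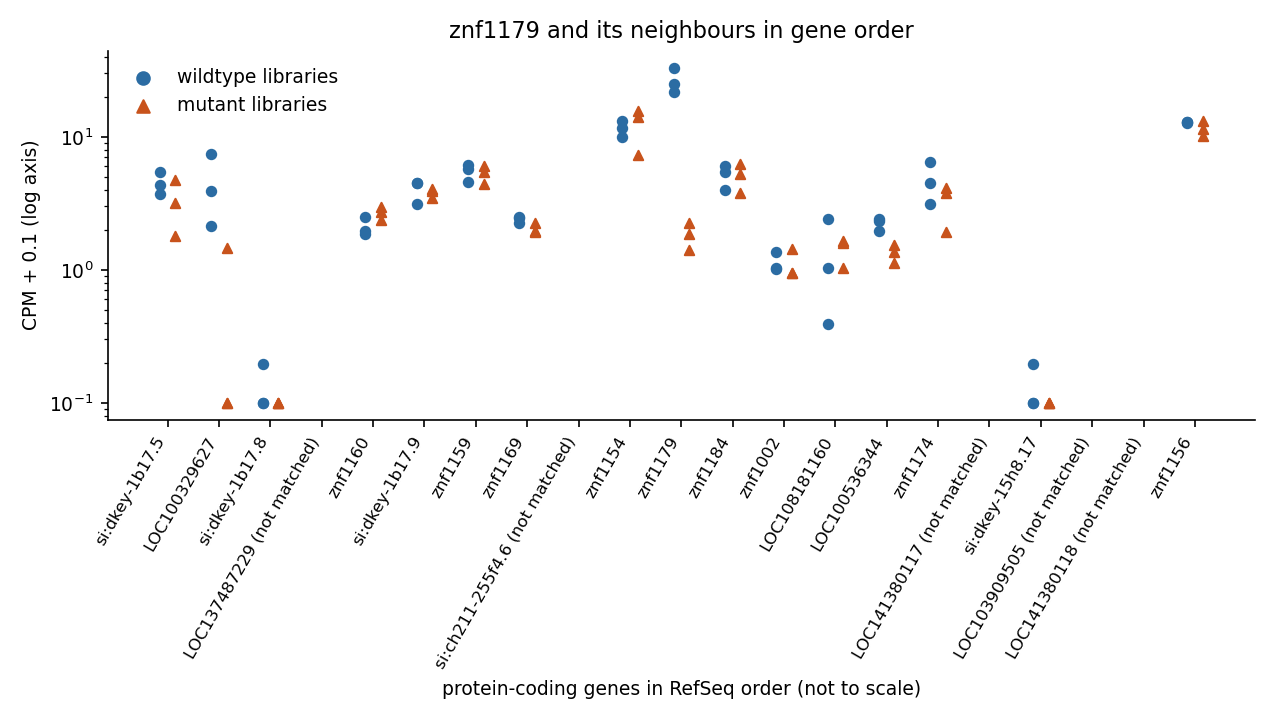
CPM + 0.1 (vertical log axis) of znf1179 and up to 10 protein-coding genes on each side, placed in RefSeq order and not to scale, with wildtype libraries as blue dots and mutant libraries as orange triangles; genes not matched to a row carry no points. The wildtype points of znf1179 lie at 21.5 to 33.1 CPM and its mutant points at 1.31 to 2.15 CPM, while the dots and triangles of znf1154 and znf1184 on either side overlap.

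At means of 1 to 20 CPM, replicates of the same genotype differed more on these rows, by the median, than on genes with whole counts. At means of 1 to 5 CPM, the coefficient of variation between replicates, averaged over both genotypes, had a median of 27.0% over 63 zinc finger rows with decimals in all 6 libraries. It was 26.4% over 1112 other genes with decimals in all 6 libraries and 19.8% over 3345 other genes with whole counts. At 5 to 20 CPM the medians were 14.99% (27 rows), 12.6% (850 genes) and 10.4% (5022 genes). Zinc finger rows without decimals in all 6 libraries had medians of 24.4% (17 rows) at 1 to 5 CPM and 15.3% (8 rows) at 5 to 20 CPM. At 20 CPM or more, 1 zinc finger row with decimals in all 6 libraries stood at 17.8%. The 2 other zinc finger rows at that level had a median of 6.04%. Other genes there had medians of 6.82% with decimals in all 6 libraries (792 genes) and 6.06% with whole counts (5956 genes). This spread includes counting error, which depends on level, and levels within a range were not matched. At 1 to 10 CPM the median level was 2.79 CPM over zinc finger rows and 3.72 CPM over all genes. Genes are not independent replicates, and no test was made of these differences.

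**Figure D5:**
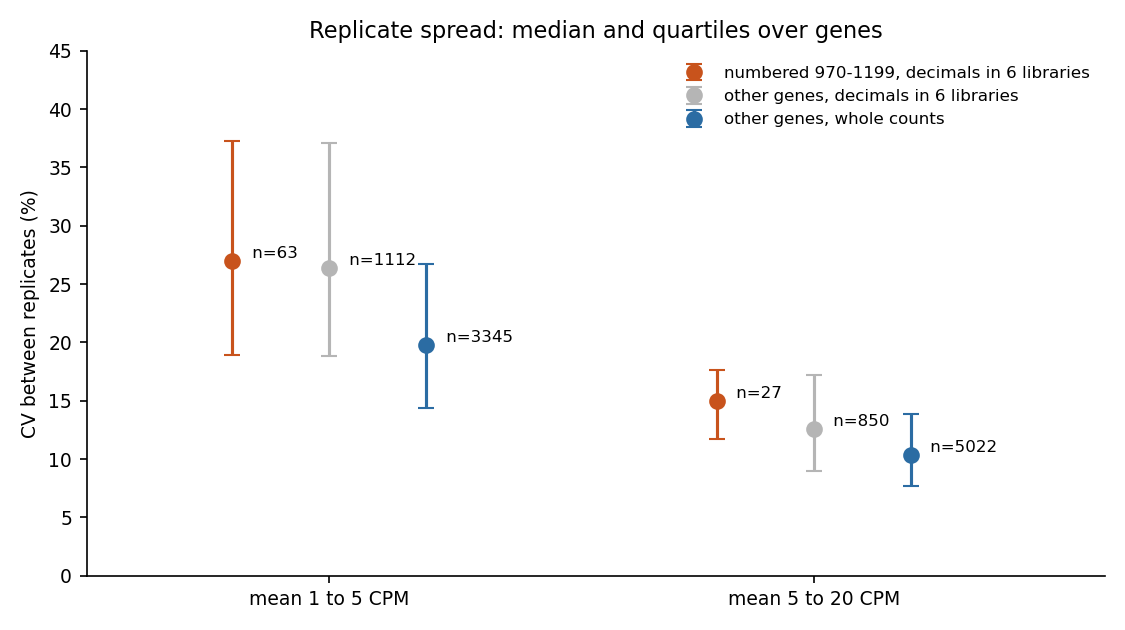
Coefficient of variation between replicates in percent (vertical axis), as the median over genes with bars from the lower to the upper quartile, in 2 ranges of mean CPM (horizontal axis), for zinc finger rows with decimals in 6 libraries, other genes with such decimals, and other genes with whole counts. In both ranges the medians fall in that order, from 27.0% to 19.8% at 1 to 5 CPM and from 14.99% to 10.4% at 5 to 20 CPM.

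Some rows switched between 0 and higher estimated counts among replicates of 1 genotype. This was so, with 0 in one library and at least 10 counts in another of the same genotype, for 16 of the 158 zinc finger rows that reached 10 counts anywhere (10.1%). The share was 2.2% of all rows that reached 10 counts, 6.7% of those with decimals in any library and 0.222% of those with whole counts. These shares were not matched for level, and the tested zinc finger rows stood lower than all genes tested (median 3.11 against 12.5 CPM). An example of a switching row is znf1029, with 0, 0 and 16.13 counts in wildtype and 1.03, 0 and 36.01 in mutants. In znf1138 the counts were 0, 0 and 3.98 in wildtype and 0, 20.59 and 7.99 in mutants. Of the 16, znf972, znf995 and znf1012 were among the rows tested. All 16 rows had decimals, in 2 to 5 libraries, and the part of read sharing in the switching was not tested.

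Zinc finger genes with lower numbers gave a comparison outside this range. Of 103 other rows with a numbered znf symbol, 98 were tested and 6 were called, 5 higher and 1 lower, or 6.12%. Of all genes tested, 11.7% were called, and 14.2% of those at 10 CPM or more, a level nearer to the median of 26.9 CPM of these 98 rows. Their median log2 fold change was -0.01. The row of znf395a rose from 35.8 ± 4.01 to 52.0 ± 4.98 CPM (log2 fold change 0.53, edgeR adjusted p = 0.00103), znf292b from 62.5 ± 2.14 to 77.6 ± 2.92 CPM (0.31, adjusted p = 0.00645), and znf385a from 22.5 ± 2.38 to 29.1 ± 0.859 CPM (0.37, adjusted p = 0.0158). The row of znf865 fell from 94.2 ± 4.29 to 77.2 ± 0.278 CPM (-0.29, adjusted p = 0.00829). The 6 called rows had whole counts in all 6 libraries. With mutant replicate 2 or 3 left out, 2 of the 98 were called. Adjusted p then reached 0.0567 and 0.0517 for znf865, and 0.0524 for znf292b without mutant replicate 3. For znf385a it was 0.0525 without wildtype replicate 3, 0.0651 and 0.0769 without mutant replicates 1 and 2, and 0.0570 by DESeq2.

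Of 34 genes of heterochromatin and repeat silencing, 32 were tested and 1 was called (3.12%). The share called was 11.7% of all genes tested and 14.2% of those at 10 CPM or more. The median level of the 32 was 70.7 CPM. The called gene was daxx, for a chaperone of histone H3.3, which rose from 32.3 ± 1.64 to 39.1 ± 1.81 CPM (log2 fold change 0.28 with SE 0.08, and adjusted p = 0.0293 by edgeR). Leaving out wildtype replicate 1 kept the call, and leaving out any other library ended it, at adjusted p of 0.0579 to 0.141. By DESeq2 it was 0.124. The list also held trim33, setdb1a, setdb1b, dnmt1 and the cbx genes for HP1 proteins, and its median log2 fold change was 0.02. The 11 germ cell markers, among them ddx4, nanos3 and the piwi genes, summed to 3.02 to 3.50 CPM in wildtype and 4.21 to 5.05 CPM in mutants. None of them was listed at 0 in all 6 libraries, none reached 1 CPM in every library, and all were too low to be tested. Whether germ cells bear on the zinc finger results was not tested.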

How the data were processed

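Per the labels' protocols, poly-A RNA was enriched from total RNA, fragmented and sequenced. Per the submitters' processing notes, STAR, RSEM and DESeq2 were used with build danRer11; versions, annotation and strand setting are not given in the sources used here. The authors deposited expected counts per gene and library, not scaled between libraries. Here they were rounded and fitted in R 4.3.3 with edgeR 4.0.16 (filterByExpr with minimum count 10, TMM, robust quasi-likelihood test, Benjamini-Hochberg adjustment over 20229 genes, threshold 0.05); the fit was tested on simulated data. Each SE was taken as the size of the log2 change over the square root of the F statistic. CPM use TMM-scaled totals, and errors are SD over 3 libraries. A count of 0 allows 3 counts, or 0.253 to 0.351 CPM, for counting error only. Whole means within 0.005 of a whole number; pair sums were allowed 0.01.

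The zinc finger rows (members) and lists were chosen with earlier results of these data known. Named were all called members, the 5 highest in CPM, read-sharing partners, the 3 largest uncalled fold changes, up to 4 called genes of each other list, and dnajc21. The whole-count rows, znf1184, znf1154, LOC100329627, LOC100536344, LOC108181160, znf1103 and the neuron, lens and blood markers were named after their values were seen. So were the examples of switching and of repeated values. Alternatives were other scalings and filters, no robust weights, unrounded counts, DESeq2 1.42.0, limma-voom 3.58.1, a replicate block, rows with decimals left out, pairs summed, and each library left out. Overlapping and antisense genes are uncertain. No sequences are shown. Figures used Python 3.11.15 and matplotlib 3.10.9.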

Additional observations from a re-analysis of the deposited data

How the results depend on the processing

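All 133 refits of the 8 called zinc finger genes kept their direction, and 94 kept the call. The refits with pairs summed are among them, although summing left the counts of these 8 genes unchanged. The kept direction adds no support for the calls. The groups of all 8 genes did not overlap, so leaving out any single library could not reverse the direction. The other refits used the same libraries again, with changes in processing alone. Without a low-count filter 13 of 193 of the zinc finger rows described here (members) were called, among 2624 of 30689 genes. Of these 13, 10 were lower and all had decimals, and 2 silencing genes were called. The 2624 genes were not split by direction. With a minimum count of 30, 5 of 72 members were called, all with decimals and 2 of them higher, among 2209 of 16715 genes. DESeq2 called 1507 genes and 4 members, 2 higher and 2 lower, all 4 with decimals, and 0 silencing genes. Limma-voom called 2065 genes and 5 members, all with decimals, 2 higher. Higher calls also numbered 2 with library totals alone and with unrounded counts. With rows with decimals in at least 3 libraries left out, which removes all 8 called rows, 0 members, 0 higher, 0 lower and 0 with decimals were called; the median was -0.14, over the 11 members left, and 2 silencing genes were called.

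With 1 library left out, calls over all genes ran from 1242 to 2658 (1454, 1242 and 1356 without mutant replicates 1, 2 and 3), member calls from 4 to 11 (1 to 4 higher, 3 to 7 lower, 4 to 11 with decimals), other znf calls from 2 to 8, silencing calls from 0 (with any 1 mutant library left out) to 2, and the value of znf1062 from -0.28 to 0.027. The median ran from -0.08 to 0.05, and dnajc21 from -0.64 to -0.41. The low-count filter was applied anew in each of these fits, so 136 to 143 members were tested. With the replicate number as a block, 10 of 126 members, 6 of them among the 8, were called, among 2470 of 20229 genes. The other calls of that fit included znf1011 and znf1105, and 2 silencing genes were called. Same-numbered libraries had correlations of -0.05, -0.0025 and 0.02, and 1 of 6 libraries correlated best with its own number, so the numbers were not taken as pairs. The cause of these differences was not tested. The 73 members with too few counts were not tested.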

Other observations

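A few zinc finger rows held the same decimal count in several libraries. The row of znf1182 read 7.74 in wildtype replicate 1 and in all 3 mutant libraries, and 8.17 and 8.30 in wildtype replicates 2 and 3. The row of znf1055 read 11.86 in wildtype replicate 1 and mutant replicate 1 and 0 in the other libraries. Of rows with decimal values of at least 5 counts in at least 2 libraries, 4 of 156 zinc finger rows and 89 of 6230 rows in the whole table held the same such value more than once; 1 and 9 rows held it in at least 3 libraries. No test was made of these counts.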
